A study of Sus scrofa with 4 samples.

Results

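The proteasome, the protease complex that degrades ubiquitin-tagged proteins, was read in pig liver by 49 of the 15383 probe sets of the deposited expression table, which stand for 40 genes. A probe set is a group of short array probes that together report 1 transcript. The 49 were all those whose array target description contains the word proteasome. They fall into the 20S alpha subunits (8 probe sets of 7 genes), the standard 20S beta subunits (7 of 7), the immunoproteasome beta subunits PSMB8, PSMB9 and PSMB10 (3 of 3), the 26S ATPases (7 of 5), the 26S non-ATPase subunits (19 of 14), the PA28 activators (3 of 3) and the inhibitor PSMF1 (2 of 1). For 5 probe sets the description names a pig sequence, and for the other 44 it names likeness to a human, mouse or rat protein.

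The 20S core is a barrel of stacked rings: the alpha rings form the gate and the beta rings hold the peptide-cutting sites. The 19S cap, with which the core makes up the 26S proteasome, binds ubiquitin chains, removes them, and unfolds the substrate with its ring of ATPases. In cells exposed to interferon, the catalytic subunits PSMB5, PSMB6 and PSMB7 can be replaced during assembly by PSMB8, PSMB9 and PSMB10, which gives the immunoproteasome. This form, often opened by the PA28 activator, makes peptides that fit MHC class I molecules. In liver, standard proteasomes are abundant in hepatocytes, and immune cells are rich in immunoproteasomes. The roles named for single subunits are those described for human, mouse or yeast proteasomes.

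The livers came from 4 Chinese miniature pigs at 4 months of age, 1 array per pig. The 2 clenbuterol pigs (1 male, 1 female) received clenbuterol, a beta2-adrenergic agonist, in the diet for 8 weeks, starting when they were 8 weeks old and weighed 18 kg on average. The dose was 25 mg/kg 2 times daily in the first 4 weeks and 50 mg/kg in the last 4. The 2 control pigs (1 male, 1 female) ate the diet without the drug, and no pig carried a genetic change that the labels mention. The labels describe the animals as full sibs without making clear whether sibs shared a treatment or were split between treatments. The study asks how clenbuterol changes expression in the liver. All values are log2 and come from GCRMA, a normalization that equalises the arrays, unless the series values are named. Those are the authors' second table, whose columns carry the sex of the pig. The GCRMA columns carry the group but no replicate number, so the 2 arrays of a group are given without sex or order.

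A probe set was tested if it reached 4 on at least 2 of the 4 arrays, which held for 11931 probe sets. Over these, the correlation was 0.994 between the 2 clenbuterol arrays and 0.994 between the 2 control arrays. Tested proteasome probe sets had a median SD of 0.057 between the clenbuterol and 0.060 between the control arrays, and all tested probe sets 0.088 and 0.080. Of 10 pairs of array controls for the 3′ and 5′ ends of a pig transcript, 6 had a 3′ to 5′ gap smaller in size in both clenbuterol livers than in both controls, a measure of RNA integrity whose part in the results was not tested. GAPDH and actin are each read by more than 1 pair, so the 10 are not 10 separate transcripts. In whole liver, a change in the number of cells of a type and a change in RNA per cell cannot be told apart.

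The first comparison is that of clenbuterol with control livers. Of the 49 proteasome probe sets 48 were tested, and 15, each of a different gene, rose with clenbuterol (limma, Benjamini-Hochberg adjusted p under 0.05 over all 11931), while none fell past the threshold. Over all tested probe sets, 11.4% were higher and 12.4% lower past the same threshold. The median difference, clenbuterol minus control, was 0.25 over the 48, with the same median at −0.034 over all tested probe sets. Differences were above 0 for 40 of the 48, against 45.4% of all tested probe sets. The 33 that did not pass had 25 differences above 0 and 8 below, and 10 of them had an unadjusted p under 0.05. The share of all tested probe sets with such a p is not given, so the 10 are not read as many or few. Rises ran from 1.3-fold (PSMD2) to 2.19-fold (PSMA5), and 8 of the 15 were under 1.5-fold. Both clenbuterol arrays lay above both controls for 31 of the 48 and below both for 7, against 30.8% and 37.3% of all tested probe sets.

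These calls rest on 2 arrays a group, and most were not stable. A fit that leaves out an array has 1 array in that group, which is assumed to vary like the 2 arrays of the other group. With clenbuterol array a left out, or array b, PSMD11 (2) alone of the 15 stayed past the threshold. Without control array a, 5 of the 15 passed (PSMA2, PSMA5, PSMB8, PSMB9 and PSMD11 (2)), and without control array b, 5 (PSMA2, PSMA5, PSMB8, PSMD4 and PSMD11 (2)). The highest adjusted p over these 4 fits was 0.0471 for PSMD11 (2) and lay between 0.0538 (PSMA2) and 0.166 (PSMA1) for the other 14. The median of the members moved little, between 0.23 and 0.24. On the series values, 5 of the 15 passed the same test (PSMA2, PSMB8, PSMB9, PSMD4 and PSMD11 (2)), beside 1 more, PSMD14 (2), and none fell. With the replicate number as a block, which here is the sex, PSMB9, PSMD11 (2) and PSMD14 (2) passed there, while PSMA2, PSMB8 and PSMD4 did not (adjusted p = 0.0532, 0.0512 and 0.0576). Of all tested probe sets, 5.78% rose and 5.33% fell there. There the median was 0.19 over the 48 and −0.025 over all, and 43 of the 48 kept the sign of their GCRMA difference, which comes from the same 4 arrays. With the series values scaled to the hybridisation spikes, which put the median of all tested probe sets at 0.36, the members' median was 0.57, and relative to all probe sets 0.21.

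**Figure D1:**
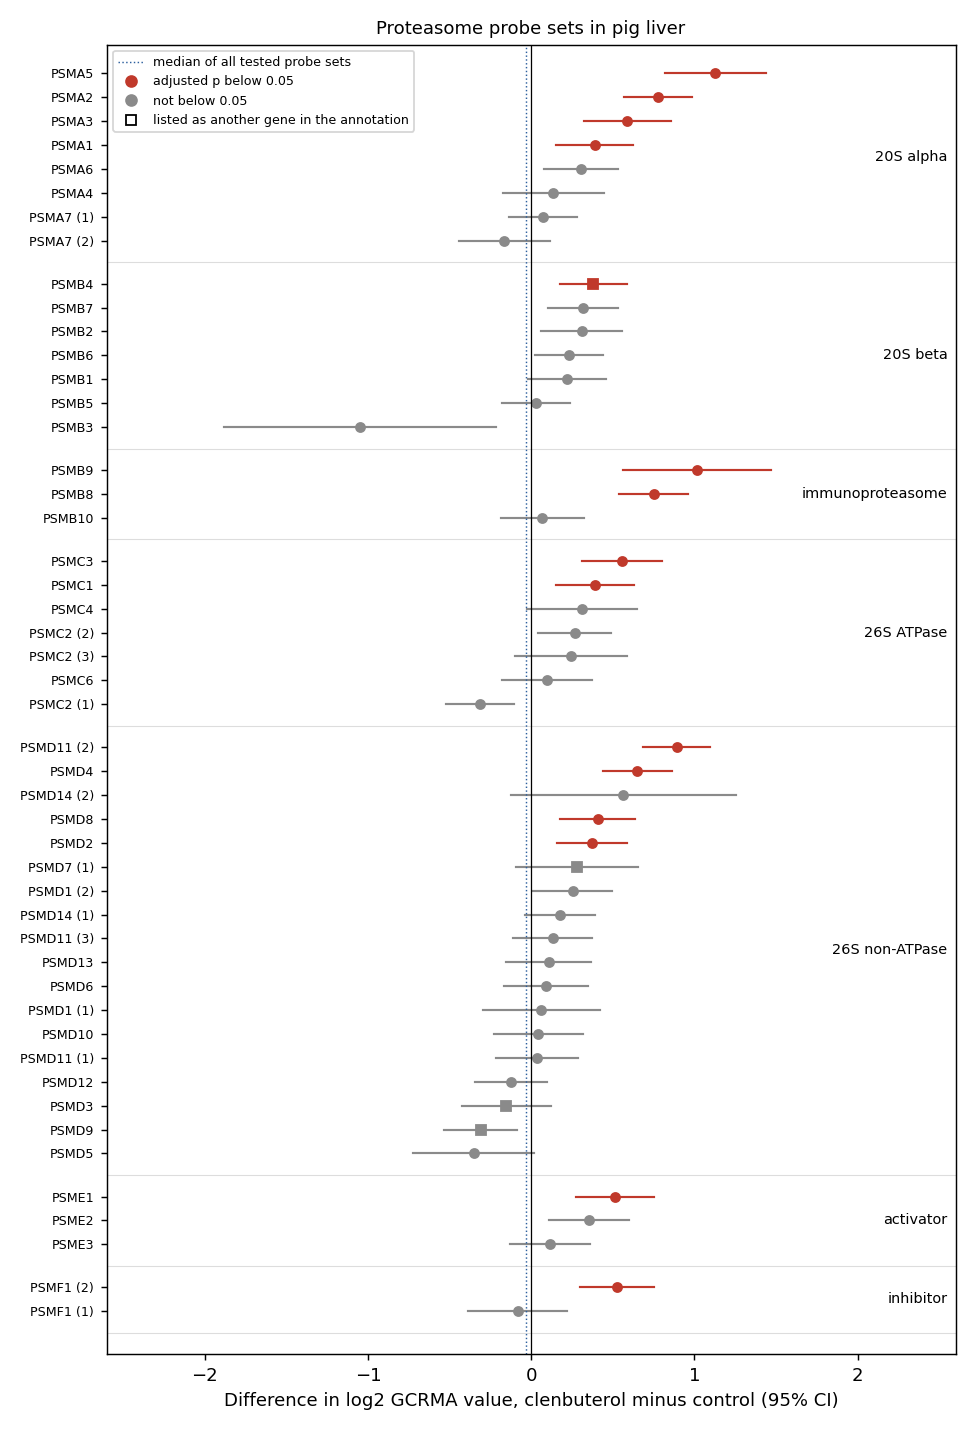
Differences in log2 GCRMA value, clenbuterol minus control, of the 48 tested proteasome probe sets, with 95% confidence intervals from limma, grouped by class and sorted within each class. The 15 that rose are in red, squares mark probe sets that the annotation lists as another gene, and the interval of PSMB3 is the widest.

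In the alpha ring 4 of 8 probe sets rose and none fell, with a median of 0.35. PSMA5 moved most of all 48, at 8.95 and 8.91 in the clenbuterol livers, against 7.93 and 7.67 in the control livers. Both clenbuterol livers were about 1 unit above both controls, a difference of 1.13 ± 0.12 (log2, SE, adjusted p = 0.00908). PSMA2 read 11.62 and 11.64 in the clenbuterol livers, against 10.87 and 10.84 in the control livers. The groups stood clearly apart again, with replicates of each group within 0.03 of each other, and the difference was 0.78 ± 0.078 (log2, SE, adjusted p = 0.00864). PSMA3 read 12.05 and 11.94 in the clenbuterol livers, against 11.49 and 11.33 in the control livers, without overlap, a difference of 0.59 ± 0.10 (log2, SE, adjusted p = 0.0233). PSMA1 read 10.63 and 10.59 in the clenbuterol livers, against 10.16 and 10.28 in the control livers. Its rise was smaller, 0.39 ± 0.088 (log2, SE, adjusted p = 0.0423). All 4 encode ring subunits that gate the core and carry no cutting site.

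The other alpha probe sets did not pass. PSMA6 had 11.63 and 11.73 in the clenbuterol livers, against 11.36 and 11.39 in the control livers, without overlap, for a difference of 0.31 ± 0.084 (log2, SE, adjusted p = 0.0648). PSMA4 differed by 0.14 ± 0.12 (log2, SE, adjusted p = 0.428), and its groups overlapped. PSMA7 was read by 2 probe sets. The brighter, PSMA7 (1), which was also the brightest of the alpha class, had 12.11 and 12.09 in the clenbuterol livers, against 12.05 and 12.01 in the control livers. The other, PSMA7 (2), the dimmest of the class, had 8.36 and 8.15 in the clenbuterol livers, against 8.40 and 8.45 in the control livers. The brighter was slightly higher and the dimmer lower in both clenbuterol arrays, and neither difference passed (0.538 and 0.31 as adjusted p).

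Against 11.4% of all tested probe sets, 1 of 7 rose among the standard beta subunits, with a class median of 0.23. That was PSMB4, a structural subunit without a cutting site and the brightest of the class, at 11.51 and 11.52 in the clenbuterol livers, against 11.13 and 11.14 in the control livers. Its 2 groups were each tight and stood apart by 0.38 ± 0.077 (log2, SE, adjusted p = 0.0337). The deposited annotation lists this probe set as a tubulin alpha gene, while the array description names the proteasome. The structural subunits PSMB1 and PSMB2 differed by 0.22 and 0.31 and did not pass (adjusted p = 0.151 and 0.0801).

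The dimmest beta probe set had the one negative difference of its class. PSMB3, also a structural subunit, read 6.29 and 7.19 in the clenbuterol livers, against 7.74 and 7.84 in the control livers. Both clenbuterol arrays were below both controls, but they differed from each other by more than the nearer one did from the controls, and the difference of −1.05 ± 0.31 (log2, SE, adjusted p = 0.077) did not pass. With clenbuterol array b left out it was −1.50 and passed (adjusted p = 0.0386), and without clenbuterol array a it was −0.60 and did not (adjusted p = 0.0687). In both fits the spread came from the 2 control arrays alone, before limma's moderation. The authors' deposited table flags 3 proteasome probe sets as chosen by both limma and SAM: PSMA5, PSMB9 and PSMB3. Their limma p-values in the authors' deposited table are 0.0178, 0.0426 and 0.132.

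None of the 3 catalytic subunits of the standard core passed. PSMB5, the chymotrypsin-like subunit, read 10.26 and 10.29 in the clenbuterol livers, against 10.23 and 10.26 in the control livers. All 4 livers lay within 0.1 of each other, and the difference was 0.029 ± 0.078 (log2, SE, adjusted p = 0.819), with a 95% interval of −0.18 to 0.24. PSMB6, the caspase-like subunit, read 10.81 and 10.82 in the clenbuterol livers, against 10.61 and 10.56 in the control livers. The clenbuterol livers were higher without overlap, by 0.23 ± 0.079 (log2, SE, adjusted p = 0.104). PSMB7, the trypsin-like subunit, read 11.28 and 11.31 in the clenbuterol livers, against 10.95 and 11.01 in the control livers. It too was higher without overlap, by 0.32 ± 0.080 (log2, SE, adjusted p = 0.0542), just short of the threshold.

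Of the 3 inducible subunits, PSMB8 and PSMB9 rose and PSMB10 did not pass. PSMB8 (LMP7), which takes the place of PSMB5, read 8.81 and 8.78 in the clenbuterol livers, against 8.03 and 8.06 in the control livers. The clenbuterol livers were 1.68-fold higher, with replicates within 0.04 of each other in each group, a difference of 0.75 ± 0.079 (log2, SE, adjusted p = 0.00967). PSMB9 (LMP2), which takes the place of PSMB6, read 8.26 and 7.92 in the clenbuterol livers, against 7.23 and 6.93 in the control livers. It was 2.02-fold higher with a wider spread between replicates, a difference of 1.02 ± 0.17 (log2, SE, adjusted p = 0.0226). PSMB10 (MECL1), which takes the place of PSMB7, read 7.75 and 7.89 in the clenbuterol livers, against 7.71 and 7.80 in the control livers. Its groups overlapped, and the difference was 0.069 ± 0.094 (log2, SE, adjusted p = 0.625), with an interval of −0.18 to 0.32. PSMB8 and PSMB9 also passed on the series values (adjusted p = 0.0324 and 0.0298), where PSMB8 was higher by 0.59 in males and 0.66 in females, and PSMB9 by 0.82 in males and 0.62 in females. With the replicate block PSMB8 did not pass there (adjusted p = 0.0512), and PSMB9 did (adjusted p = 0.0466). On GCRMA values PSMB8 lost its call when either clenbuterol array was left out, and PSMB9 with either clenbuterol array or control array b left out.

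The signal of each inducible subunit was set against that of its partner within each array, a comparison chosen after the values were seen. Since probes differ in brightness, the size of such a log2 ratio has no meaning of its own, and only its change does. For PSMB8 over PSMB5 it was −1.45 and −1.51 in the clenbuterol livers, against −2.20 and −2.20 in the control livers. For PSMB9 over PSMB6 it was −2.54 and −2.90 in the clenbuterol livers, against −3.38 and −3.63 in the control livers. Both ratios were higher with clenbuterol without overlap, by 0.72 and 0.78. For PSMB10 over PSMB7 the values were −3.53 and −3.42 in the clenbuterol livers, against −3.24 and −3.21 in the control livers, lower with clenbuterol by 0.25. On the series values the 3 differences were 0.58, 0.52 and −0.14. A two-sided exact permutation test gave p = 0.333 for each, which is the smallest that 2 arrays against 2 allow, so none can pass.

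**Figure D2:**
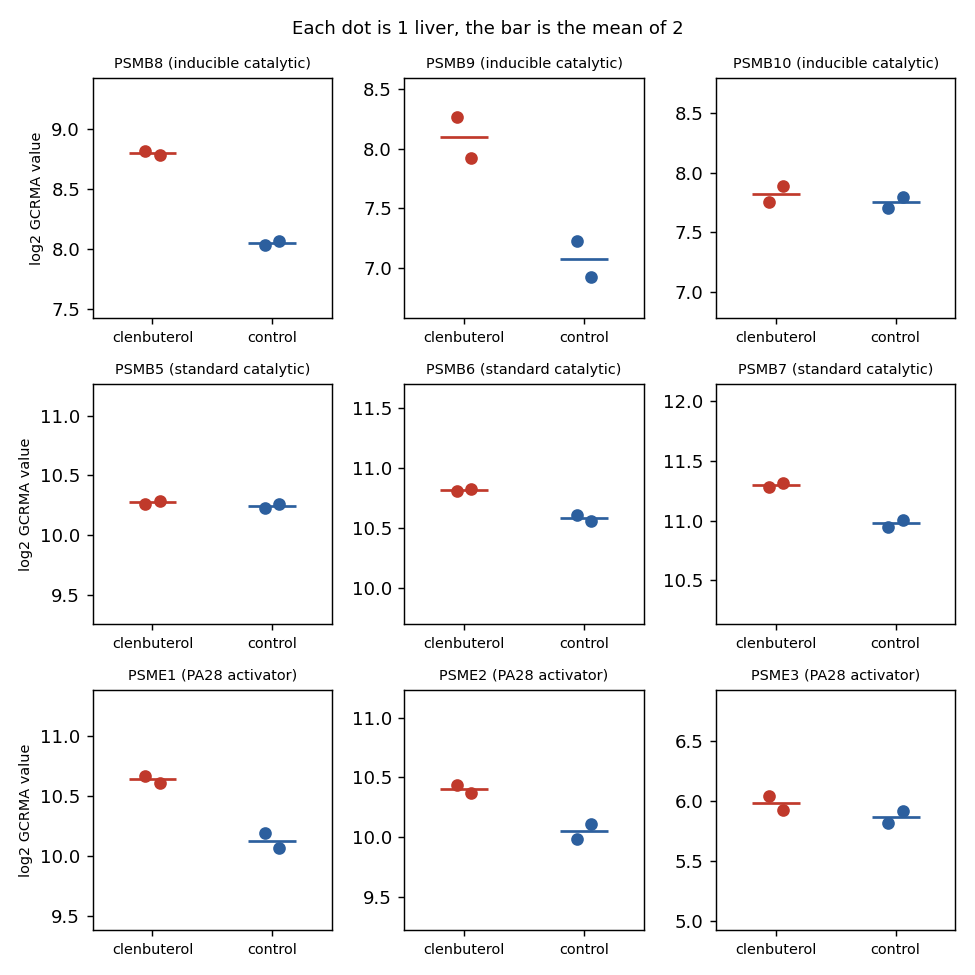
Log2 GCRMA values of the 3 inducible catalytic subunits (top), the 3 standard catalytic subunits they replace (middle) and the 3 PA28 activator subunits (bottom). Each dot is 1 liver and each bar a group mean, and every panel spans 2 log2 units. PSMB8, PSMB9 and PSME1 show the widest gaps, and PSMB5 and PSMB10 the narrowest.

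All 3 differences of the PA28 activators were above 0, with a median of 0.36, and 1 of the 3 passed the threshold. PSME1 (PA28 alpha), the brightest, read 10.67 and 10.61 in the clenbuterol livers, against 10.19 and 10.06 in the control livers. The clenbuterol livers were higher without overlap, by 0.51 ± 0.090 (log2, SE, adjusted p = 0.0246). PSME2 (PA28 beta), its partner in the cytosolic ring, read 10.44 and 10.37 in the clenbuterol livers, against 9.98 and 10.11 in the control livers. It was likewise higher in both, but the difference of 0.36 ± 0.091 (log2, SE, adjusted p = 0.056) did not pass. PSME3 (PA28 gamma), which forms a separate nuclear ring and was the dimmest, read 6.04 and 5.92 in the clenbuterol livers, against 5.82 and 5.91 in the control livers. Its groups were close but did not overlap, and differed by 0.12 ± 0.092 (log2, SE, adjusted p = 0.402). PSMF1 (PI31), an inhibitor of the isolated core that also takes part in proteasome transport, was read by 2 probe sets, of which 1 rose. PSMF1 (2) read 7.69 and 7.77 in the clenbuterol livers, against 7.16 and 7.24 in the control livers. It rose by 0.53 ± 0.085 (log2, SE, adjusted p = 0.0208). PSMF1 (1) read 7.99 and 7.96 in the clenbuterol livers, against 8.19 and 7.94 in the control livers. There the groups overlapped and the difference was −0.083 ± 0.11 (log2, SE, adjusted p = 0.632).

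Of the 7 ATPase probe sets, which cover 5 of the genes whose products unfold substrates and drive them into the core, 2 rose and none fell past the threshold (median 0.27). PSMC3 read 10.60 and 10.64 in the clenbuterol livers, against 9.99 and 10.13 in the control livers. Both clenbuterol livers were higher, by 0.56 ± 0.091 (log2, SE, adjusted p = 0.0214). PSMC1 read 9.44 and 9.57 in the clenbuterol livers, against 9.09 and 9.13 in the control livers. It passed narrowly, at 0.39 ± 0.090 (log2, SE, adjusted p = 0.0438), but not on the series values (adjusted p = 0.622), where it was the only called member with a male pair below 0 (−0.040, female pair 0.24). PSMC6, the brightest, read 11.44 and 11.65 in the clenbuterol livers, against 11.46 and 11.43 in the control livers. Its groups overlapped, with a difference of 0.10 ± 0.10 (log2, SE, adjusted p = 0.532). PSMC4, the dimmest, read 9.16 and 8.88 in the clenbuterol livers, against 8.66 and 8.75 in the control livers. The replicates of the clenbuterol group differed by almost as much as the groups did, and 0.31 ± 0.13 (log2, SE, adjusted p = 0.147) did not pass.

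The 3 probe sets of PSMC2 had differences of both signs. PSMC2 (1) was lower in both clenbuterol arrays, by 0.31 (log2, adjusted p = 0.0524). PSMC2 (2) was higher in both, by 0.27 (adjusted p = 0.0852), and PSMC2 (3) by 0.25 (adjusted p = 0.237). On the series values, PSMC2 (1) differed by −0.030 only. None passed, so no direction is given for the gene.

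Among the non-ATPase subunits 4 of 18 tested probe sets rose and none fell past the threshold, with a median of 0.12, and of 0.18 on the series values. PSMD4, a ubiquitin receptor (Rpn10 in yeast), read 9.27 and 9.26 in the clenbuterol livers, against 8.59 and 8.64 in the control livers. The groups were tight and apart, by 0.65 ± 0.079 (log2, SE, adjusted p = 0.0122), and PSMD4 also passed on the series values (adjusted p = 0.0401), though not with the replicate block. PSMD2 (Rpn1), the docking platform for shuttle factors, read 10.02 and 10.06 in the clenbuterol livers, against 9.64 and 9.70 in the control livers. It rose by 0.37 ± 0.081 (log2, SE, adjusted p = 0.0384). PSMD8 (Rpn12), a subunit of the lid of the cap, read 10.81 and 10.70 in the clenbuterol livers, against 10.36 and 10.34 in the control livers. It rose by 0.41 ± 0.087 (log2, SE, adjusted p = 0.0373). None of these 3 calls held in all 4 fits that left out an array.

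PSMD11 (Rpn6), the lid subunit that clamps cap and core together, was read by 3 probe sets that differed. PSMD11 (2) read 8.70 and 8.70 in the clenbuterol livers, against 7.81 and 7.80 in the control livers. Replicates agreed within 0.02 in each group, the difference was 0.89 ± 0.077 (log2, SE, adjusted p = 0.00661), and the call held on the series values (adjusted p = 0.028) and with any 1 array left out. PSMD11 (1), the brightest of the 3, read 10.65 and 10.73 in the clenbuterol livers, against 10.58 and 10.72 in the control livers, and its groups overlapped, with a difference of 0.038 ± 0.094 (log2, SE, adjusted p = 0.8). PSMD11 (3) differed by 0.13 ± 0.091 (log2, SE, adjusted p = 0.342), with the male pair at 0.69 and the female pair at −0.16 on the series values. The most stable call among the 48 thus belongs to 1 of 3 probe sets of a gene, and the other 2 did not pass.

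PSMD14 (Rpn11), the deubiquitinase of the cap, was read by 2 probe sets. PSMD14 (2), the dimmest tested non-ATPase probe set, read 5.33 and 5.52 in the clenbuterol livers, against 4.50 and 5.22 in the control livers. The clenbuterol arrays were higher, but the control arrays lay 0.71 apart, and the difference was 0.57 ± 0.26 (log2, SE, adjusted p = 0.186). Without control array b it passed, at 0.92 (adjusted p = 0.0401), in a fit with 1 control array, whose spread came from the clenbuterol arrays alone, before limma's moderation. On the series values it was 0.71 between the males and 1.03 between the females, and passed (adjusted p = 0.0282). PSMD14 (1), the brighter, differed by 0.18 ± 0.080 (log2, SE, adjusted p = 0.18). PSMD7 (Rpn8), which pairs with PSMD14 in the lid, was read by 1 tested probe set, at 0.28 ± 0.14 (log2, SE, adjusted p = 0.217), and by PSMD7 (2), which stayed between 3.57 and 3.66 on all arrays and is the 1 member below the filter.

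The other non-ATPase probe sets did not pass. PSMD1 (Rpn2), the scaffold of the base, differed by 0.063 and 0.25 on its 2 probe sets. The lid subunits PSMD6, PSMD12 and PSMD13 lay between −0.12 (PSMD12) and 0.11 (PSMD13), and PSMD12 had the opposite sign, 0.30, on the series values. PSMD3, another lid subunit, was at −0.15. PSMD5, PSMD9 and PSMD10 are chaperones that assemble the base and leave before it is finished. PSMD5 was lower in both clenbuterol arrays by 0.35 (log2, adjusted p = 0.14), and PSMD10 differed by 0.045 (adjusted p = 0.777). The brightest member of all was the probe set described as PSMD9, at 13.51 and 13.46 in the clenbuterol livers, against 13.75 and 13.84 in the control livers. It was lower without overlap, by 0.31 (log2, adjusted p = 0.0639), but the annotation lists it as albumin, whose own probe set averaged 15.31.

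In all, 5 probe sets are listed in the annotation as another gene: PSMB4 as a tubulin alpha, PSMD3 as a ribosomal protein, both PSMD7 probe sets as a high mobility group protein and PSMD9 as albumin. Without them, 14 of 44 tested probe sets rose, with the same median of 0.25. With the brightest probe set of each gene alone, 13 of 40 genes rose and the median was 0.25. PSMD11 and PSMF1 were not among the 13, since PSMD11 (1) and PSMF1 (1) are the brightest of these genes and did not pass. Over the core (alpha, beta and inducible subunits together), 7 of 18 probe sets rose with a median of 0.31, and over the ATPase and non-ATPase subunits of the cap, 6 of 25 with a median of 0.18. These counts and those of the single classes stand beside 11.4% higher over all tested probe sets.

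**Figure D3:**
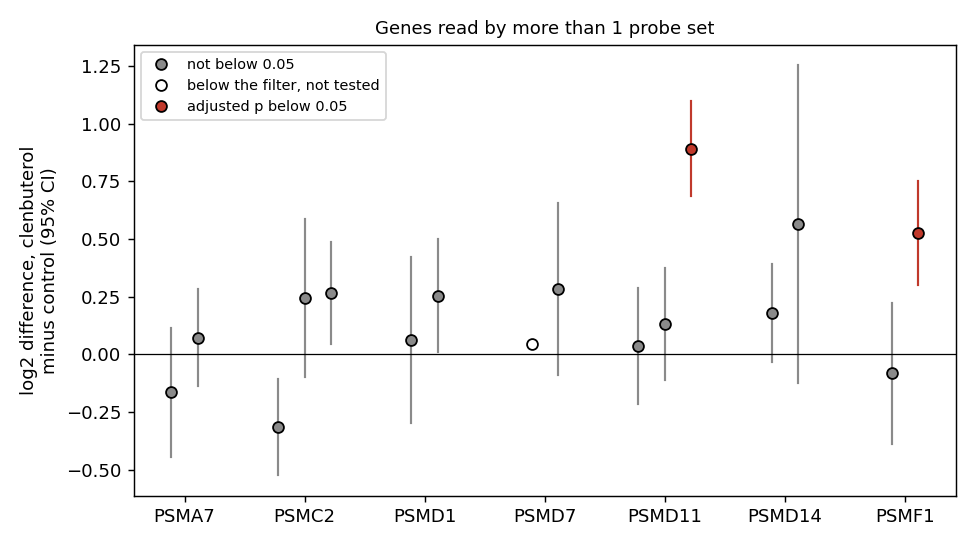
Log2 differences, clenbuterol minus control, for the 7 genes read by more than 1 probe set, with 95% confidence intervals from limma. PSMA7, PSMC2 and PSMF1 have probe sets on both sides of 0, and PSMD11 and PSMF1 each have 1 probe set that rose.

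The series values show each sex separately, with 1 pig per sex and group and therefore no test of the response within a sex. The median of the 48 was 0.19 between the males and 0.20 between the females, against −0.026 and −0.023 over all tested probe sets. The difference was above 0 in both pairs for 32 of the 48, where 34.7% of all tested probe sets were, below 0 in both for 7, and of opposite sign for 9. For the counts below 0 and of opposite sign, the share over all tested probe sets is not given. The 15 probe sets that rose were chosen on these same 4 arrays, so their signs here are largely fixed by that choice. PSMB8 had a log2 series value of 10.82 in the clenbuterol male, against 10.23 in the control male, and 10.83 in the clenbuterol female, against 10.17 in the control female. PSMB9 had 9.56 in the clenbuterol male, against 8.75 in the control male, and 9.38 in the clenbuterol female, against 8.76 in the control female. Both were higher with clenbuterol in each sex, and within a treatment the sexes lay closer to each other than to the other treatment. PSMF1 (2) was 0.38 higher between the males and 0.74 between the females, and PSMA5 0.47 between the males and 0.72 between the females.

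**Figure D4:**
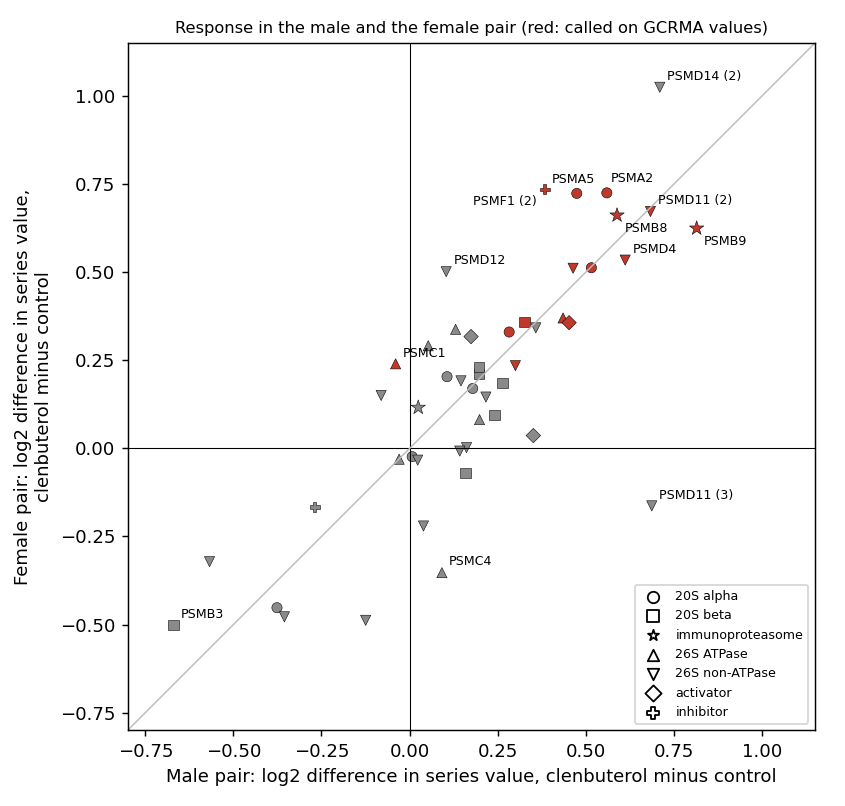
Log2 differences in series value, clenbuterol minus control, between the 2 males (horizontal) and between the 2 females (vertical) for the 48 tested probe sets. Marker shapes give the class, red marks the 15 that rose on GCRMA values, and the grey line marks equal differences. The red points were chosen on the same 4 arrays, and PSMC1 is the 1 red point below 0 on the male axis.

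The second comparison is that of males with females, for which no difference was detected. In males minus females on the series values, 0 of the 48 passed limma's adjusted threshold and 0 had an unadjusted p under 0.05. This fit held sex alone, so differences between the treatments counted as spread and made differences between the sexes harder to detect. Among all tested probe sets, 0.00838% passed the adjusted threshold and 1.35% had an unadjusted p under 0.05. The median difference of the 48 was 0.018. The count stayed 0 with treatment in the model. Sex and replicate number are the same split here.

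Around the proteasome, lists of genes that regulate, feed or use it were read through 1 probe set per gene, the brightest of those tested. The counts of each list stand beside 11.4% higher and 12.4% lower over all tested probe sets. Among interferon-responsive genes, 5 of the 11 measured, out of 18 listed, rose and none fell, with a median of 0.63 where that of all tested probe sets was −0.034. Of the 5, ISG20 read 4.68 and 4.73 in the clenbuterol livers, against 3.34 and 3.72 in the control livers. It passed the filter through the clenbuterol arrays alone, so its rise is partly fixed by the filter. ISG15, a ubiquitin-like protein, read 9.78 and 9.83 in the clenbuterol livers, against 8.25 and 8.51 in the control livers. It was higher without overlap, by 1.43 ± 0.12 (log2, SE, adjusted p = 0.00597), and USP18, the protease that removes it, rose by 1.01 ± 0.11 (log2, SE, adjusted p = 0.00975). On the series values, USP18 and ISG20 did not pass limma's threshold (adjusted p = 0.0885 and 0.0641), while the other 3 of the 5 did. IRF7, not called on GCRMA values, passed limma's threshold there, at 0.83 (adjusted p = 0.0315). GBP2, whose GCRMA difference is the median of 0.63, differed there by 0.014 only. IRF1, a transcription factor known to drive PSMB8 and PSMB9 in human and mouse cells, read 8.53 and 8.44 in the clenbuterol livers, against 8.56 and 8.51 in the control livers. Its groups overlapped and differed by −0.048 ± 0.084 (log2, SE, adjusted p = 0.708).

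The calls of IFI6, ISG15 and OAS1 held in all 4 fits that left out an array, and those of ISG20 and USP18 did not.

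For class I antigen processing, 6 genes were measured out of 12 listed. Read through the brightest probe sets, 1 rose, the class I heavy chain SLA-3, by 1.08 ± 0.088 (log2, SE, adjusted p = 0.00593). With any tested probe set counted, 3 rose and none fell. The heavy chain SLA-1 was read by 5 tested probe sets. The brightest differed by 0.32 ± 0.080 (log2, SE, adjusted p = 0.0547), and another by 0.14 (adjusted p = 0.284). The other 3 rose by 0.89 to 1.02, and these calls and that of SLA-3 held in all 4 fits that left out an array. Class I genes are alike in sequence, and the probe sets of SLA-1 and SLA-3 may not tell them apart. B2M, the light chain of the class I molecule, differed by 0.29 ± 0.077 (log2, SE, adjusted p = 0.062) on its brightest probe set, while its other one rose by 0.46 (adjusted p = 0.0338), a call held in none of the 4 fits. TAP1, a subunit of the peptide pump into the endoplasmic reticulum, read 7.05 and 7.03 in the clenbuterol livers, against 6.997 and 7.02 in the control livers. The 4 livers were within 0.06 of each other, with a difference of 0.027 ± 0.078 (log2, SE, adjusted p = 0.826) and an interval of −0.18 to 0.24. On the series values TAP1 agreed less closely, at −0.36 between the males and 0.16 between the females, and did not pass (adjusted p = 0.722). In the pig gene table (Sscrofa11.1) the order of genes on chromosome 7 is TAP2, PSMB8, TAP1, PSMB9, so the 1 measured gene between the 2 inducible subunits that rose did not pass. In humans, TAP1 and PSMB9 share a promoter region. PSME2 and PSME1 also lie on chromosome 7, close to IRF9, and IRF9 differed by 0.19 ± 0.081 (log2, SE, adjusted p = 0.169).

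On the supply side, of 12 measured ubiquitin and shuttling genes, none rose and 1 fell, RAD23B, a carrier of ubiquitin-tagged proteins to the proteasome. It read 11.99 and 12.06 in the clenbuterol livers, against 12.48 and 12.59 in the control livers. Both clenbuterol livers were lower, with a difference of −0.51 ± 0.088 (log2, SE, adjusted p = 0.0242). That call was lost in each of the 4 fits that left out an array and on the series values (adjusted p = 0.0563). The ubiquitin genes UBB and RPS27A differed by 0.15 and 0.011 and did not pass, and ADRM1, a ubiquitin receptor of the cap, was at −0.34 ± 0.13 (log2, SE, adjusted p = 0.135). Of the regulators and assembly factors other than PSMF1, only ECPAS, which holds cap and core together, and NGLY1, which activates the proteasome transcription factor NFE2L1, were measured above the filter, at −0.041 ± 0.082 (log2, SE, adjusted p = 0.75) and 0.037 ± 0.078 (log2, SE, adjusted p = 0.763). Of 7 peptidases that trim or destroy peptides after the proteasome, DNPEP rose by 0.58 ± 0.13 (log2, SE, adjusted p = 0.0432), BLMH and NPEPPS fell by 0.55 and 0.54 (log2, adjusted p = 0.0205 and 0.0185), and TPP2, THOP1 and NRDC did not pass. The calls of DNPEP, BLMH and NPEPPS were lost in each of the 4 fits and on the series values. LAP3 differed by −0.17 on its brightest probe set (adjusted p = 0.197), and rose by 0.38 on a dimmer one (adjusted p = 0.0376), so no direction is given for the gene. The median of all 7, each on its brightest probe set, was −0.075.

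**Figure D5:**
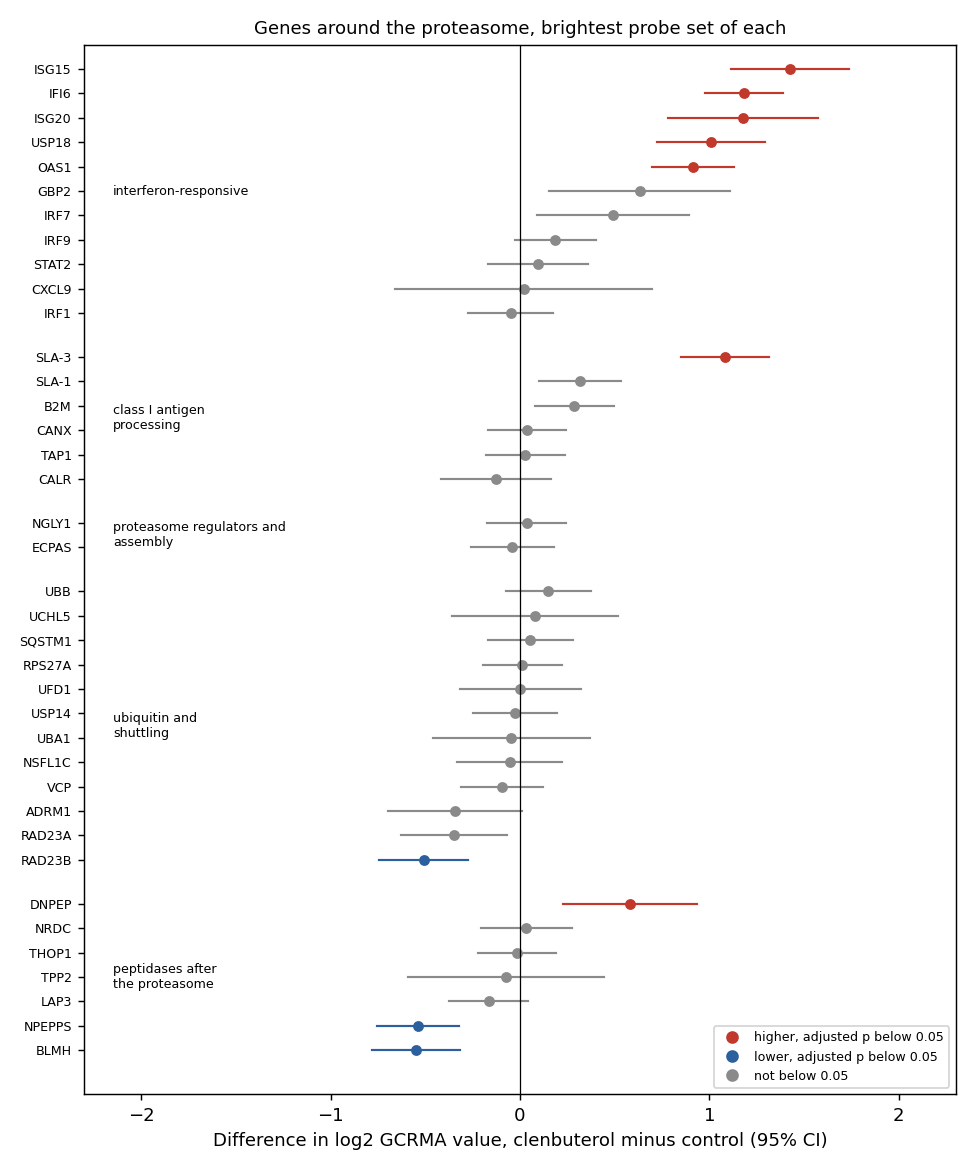
Log2 differences, clenbuterol minus control, with 95% confidence intervals from limma, for the measured genes of 5 lists around the proteasome, each read through its brightest tested probe set. Red marks genes that rose and blue those that fell. The 5 red interferon-responsive genes are all above 0.7, and RAD23B is the 1 blue gene of its list. ISG20, among the 5, passed the filter through the clenbuterol arrays alone.

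Markers of other cells were read in the same livers, where 11.4% of all tested probe sets were higher and 12.4% lower past the threshold. Of 5 leukocyte markers, 4 rose (PTPRC, LCP1, LAPTM5 and CD74). The summed signal of all 5 (log2) was 11.74 and 11.78 in the clenbuterol livers, against 10.76 and 11.02 in the control livers. Each sum here takes in every measured marker of its list, passed or not. It is made on the linear scale, so the brightest markers weigh most. Of the 5 measured T and NK cell markers, CD2 and GZMB rose (sum 9.20 and 9.28 in the clenbuterol livers, against 8.72 and 8.51 in the control livers), while CD3G and CD8B were below the filter. Among 6 markers of macrophages, Kupffer cells included, AIF1 and CD14 rose (sum of the 6 14.89 and 14.81 in the clenbuterol livers, against 14.57 and 14.61 in the control livers). The brightest of the 6, C1QC and C1QB, weigh most in this sum and did not pass (limma, adjusted p = 0.0828 and 0.225). None of 6 hepatocyte markers passed, and their sum was 17.68 and 17.70 in the clenbuterol livers, against 17.71 and 17.73 in the control livers. These 6 lie at or above the 99.64 percentile of all probe sets, near the top of the array's range, where array signals can be compressed. Of 7 stellate cell and fibroblast markers, 5 rose and 1, RGS5, fell (sum 13.43 and 13.41 in the clenbuterol livers, against 12.96 and 12.96 in the control livers). Among the 5, COL3A1 rose on its brightest probe set, but dimmer ones differed by 0.22 and −0.14 and did not pass. A dimmer probe set of COL1A2, at 0.35, did not pass either. Of 4 endothelial markers, 2 rose and 1, VWF, fell (sum 10.47 and 10.45 in the clenbuterol livers, against 10.34 and 10.31 in the control livers). The dendritic cell marker XCR1, the 1 measured of 4 listed, was higher by 0.35 ± 0.078 (log2, SE, adjusted p = 0.0407). It read 4.81 and 4.78 in the clenbuterol livers, against 4.44 and 4.45 in the control livers, near the filter at 4. On the series values it did not pass limma's threshold (adjusted p = 0.071). The 1 probe set described as the B cell gene CD79A is annotated with a role in translation and is not read as a marker. Of the 18 markers called in all, 7 also passed on the series values, and 2 (LCP1 and COL1A1) held in all 4 fits that left out an array. The part of these cells in the rises of PSMB8, PSMB9, PSME1 and the other subunits was not tested.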

How the data were processed

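The authors deposited log2 values from GCRMA, as stated in the submitters' processing notes and per the file headers. Which version was used, the sources used here do not say. The same table holds a signed fold, kept as a score, a limma p-value and a SAM q-value with a flag, all computed by the authors. The series value table holds 1 linear intensity per probe set and array, deposited by the authors, whose making the sources used here do not describe. Its log2 was used for the comparisons by sex, because the GCRMA columns carry no replicate number.

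Members were the probe sets whose description contains the word proteasome, with genes and classes read from that description. Members, lists and tests were chosen with earlier results of these data known. All 40 symbols were found in a pig gene table (Sscrofa11.1), which was used for names and gene order only. List genes were matched by symbol and description, and, in a departure from the plan made after the annotation was read, by description alone where no symbol was given. A few genes of the lists are not reported here. Values by array are given for inducible and standard catalytic subunits, called members and the brightest and dimmest of each class.

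Probe sets at 4 or more (log2) on at least 2 of 4 arrays were tested with limma (version 3.58.1, R 4.3.3; lmFit, then eBayes). The model held group only, or sex only for males against females. The p-values were adjusted after Benjamini-Hochberg over all tested probe sets, and the threshold was 0.05. Standard errors and intervals are those moderated by eBayes. The fit was tested on simulated data. Each group holds 2 arrays, so the number of arrays limits the precision, and p-values measure the spread between these pigs only. The planned motif search in promoters was not run.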

Additional observations from a re-analysis of the deposited data

Results flagged for a closer look

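In 9 of the 48 tested probe sets the differences of the male and the female pair of the series values had opposite signs. The same share over all tested probe sets is not given here, so the 9 are not read as many or few. Whether the sexes differed was not tested, since each sex had 1 pig per group. PSMC1, which rose on GCRMA values, was at −0.040 between the males and 0.24 between the females (log2, clenbuterol minus control). PSMD11 (3) had the widest split, 0.69 between the males and −0.16 between the females. PSMC4 was at 0.092 between the males and −0.35 between the females, and PSMD10 at 0.039 and −0.22 in the same order. PSMB5 was at 0.16 between the males and −0.069 between the females, PSMD1 (1) at −0.081 and 0.15, and PSMD13 at 0.14 and −0.0075. The splits of PSMD11 (1), at 0.023 and −0.033, and PSMA7 (1), at 0.0074 and −0.023, were under 0.1.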

How the results depend on the processing

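Against 15 higher and 0 lower proteasome probe sets and a median of 0.25, the count of higher probe sets was 16 without the filter, 18 with a filter at 6, 21 with an intensity trend and 4 at a threshold of 0.01. The count of lower ones was 1 without the filter (PSMC2 (1)), 3 with a filter at 6 (PSMB3, PSMC2 (1) and PSMD9) and 2 with the trend (PSMC2 (1) and PSMD9). Calls over the whole table, in either direction, changed too. They were 2843 of 11931 in the main fit and 2350 of 15383 without the filter. With the filter at 6 they were 2987 of 9126, and with the trend 3345 of 11931. On the series values 6 were higher (median 0.19), 6 after quantile normalization, and 23 after scaling to spikes (median 0.57), which shifts every probe set alike. Of all 11931 tested probe sets, 1326 were called on the series values, 1294 after quantile normalization and 3354 after scaling to spikes. PSMD12, at −0.12 on GCRMA values, had the opposite sign on the series values before that scaling (0.30) and after it (0.69). Leaving out 1 array gave 1 to 6 higher, 0 to 1 lower and medians of 0.23 to 0.24. With 3 arrays in the fit, 579 to 1213 probe sets of the whole table were called, against 2843 with 4, and each such fit has 1 array in a group, assumed to vary like the other group. With the replicate block on the series values 3 were higher (PSMB9, PSMD11 (2) and PSMD14 (2), median 0.19), and 1054 of all 11931 were called. The numbers are also the sexes, and deviations of same-numbered pigs correlated at 0.18 over 2 pairs, which does not settle a pairing. The cause of these changes was not tested, except that fewer arrays or probe sets enter some fits. The count between males and females was 0 in all 6 alternatives. With one probe set per gene, or without probe sets listed as another gene, both chosen after seeing the data, the counts over all members stayed within 1.5 times and the median within the spread between replicates, but the first left out the 1 call of the inhibitor (PSMF1 (2)) and the second the 1 among the standard beta subunits (PSMB4), which put those counts at 0. The first also left out the call of PSMD11 (2), the most stable of all, since PSMD11 (1) is brighter.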
